A study of Homo sapiens with 2 samples.

Results

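The genes described here are 34 listed genes of sterol and fatty acid synthesis: 18 enzymes of the cholesterol pathway, 8 genes that regulate the pathway or move sterols between membranes, and 8 enzymes of fatty acid synthesis, elongation and desaturation. They were followed on 2 Affymetrix arrays of CL1-5 cells, a highly invasive human lung adenocarcinoma line grown in medium with fetal bovine serum. In the treated group, 1 culture was kept for 24 h with analogue 3 at 0.11 µM, a derivative of the plant product desmosdumotin C that the labels describe with iodo, tripropyl and methoxy groups. That is the concentration the submitters give as the compound's median effective dose in these cells. In the control group, 1 culture received the solvent DMSO at 0.05 µg/mL for the same 24 h. Each group was 1 array, so the comparison has no replicate check, and no test, standard error or p-value is given. Probe sets were taken as members where the platform annotation gave them exactly 1 gene symbol from the list. This found 70 probe sets for 31 of the 34 genes, out of 19775 genes with such a probe set on the array. FDFT1, CYP51A1 and FADS1 had no probe set that met the rule, so no expression value is given for them.

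Cholesterol is made from acetyl-CoA, first along the mevalonate pathway to farnesyl diphosphate and then through squalene and lanosterol. Most genes of this pathway, and of fatty acid synthesis, are activated by the sterol regulatory element-binding proteins (SREBPs), membrane-bound transcription factors encoded by SREBF1 and SREBF2. When sterols are scarce, the escort protein SCAP carries an SREBP from the endoplasmic reticulum to the Golgi, where proteases release its active part; when sterols are plentiful, the INSIG proteins hold SCAP back. Cholesterol taken up with lipoproteins leaves the lysosome through NPC2 and NPC1.

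Intensities are linear and are multiples of the array median, which was 1 on both arrays. A gene was represented by its brightest probe set, by mean log2 intensity, and counted as measured where that probe set reached a floor of 32 on at least 1 array, as 5050 genes and 22 of the 31 members did. Differences are log2 intensity with analogue 3 minus log2 intensity with DMSO, after values under 32 were raised to 32. The spread between probe sets of the same gene, which leaves out the error between cultures, had an SD of 0.17 for 1 probe set over 1127 genes. Over the 6 members with such pairs of probe sets it was 0.22. Log2 differences of the 18 probe sets for spiked-in transcripts ran from -0.14 to 0.17 around a median of -0.03. For ACTB, signal at the 3′ end over that at the 5′ end was 10.0 with analogue 3 and 11.8 with DMSO, and for GAPDH it was 1.18 and 1.21. Of the epithelial markers, KRT18 was at 457.9 with analogue 3 and 460.8 with DMSO, and KRT8 was at 77.8 against 42.3, or 1.84-fold higher, whose part in the results was not tested. KRT7 and KRT19 were under the floor, and EPCAM and CDH1 lay below the array median on both arrays. Markers of leukocytes, fibroblasts, endothelium and adipocytes were all under the floor, with the highest at 15.7 (PECAM1, with analogue 3). In RNA from a whole culture, fewer cells with a transcript and less of it per cell cannot be told apart.

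The lysosomal sterol transporter gene NPC1 was the only measured member past 2-fold, at 32.7 with analogue 3 against 81.9 with DMSO, or 2.50-fold lower. No measured member was at least 2-fold higher, where 3.47% of all measured genes were, and 1 of 22 was at least 2-fold lower, where 2.67% of all were. The mevalonate enzymes were level or slightly higher with analogue 3. Of the 8 measured enzymes downstream of squalene, 5 lay below 0, as did 51.5% of all measured genes, and 3 lay above. The 5 measured genes of sterol regulation and transport all lay below 0, where 51.5% of all measured genes did. Of these, INSIG1, NPC1 and STARD4 were lower by more than 2 probe-set SDs, as were 20.4% of all measured genes, and SCAP was level. The measured members as a whole split 11 above 0 and 11 below, with a median log2 difference of 0.01 against -0.01 for all measured genes. The sign of that median over the members turned under 5 of the 10 alternative ways of processing.

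**Figure D1:**
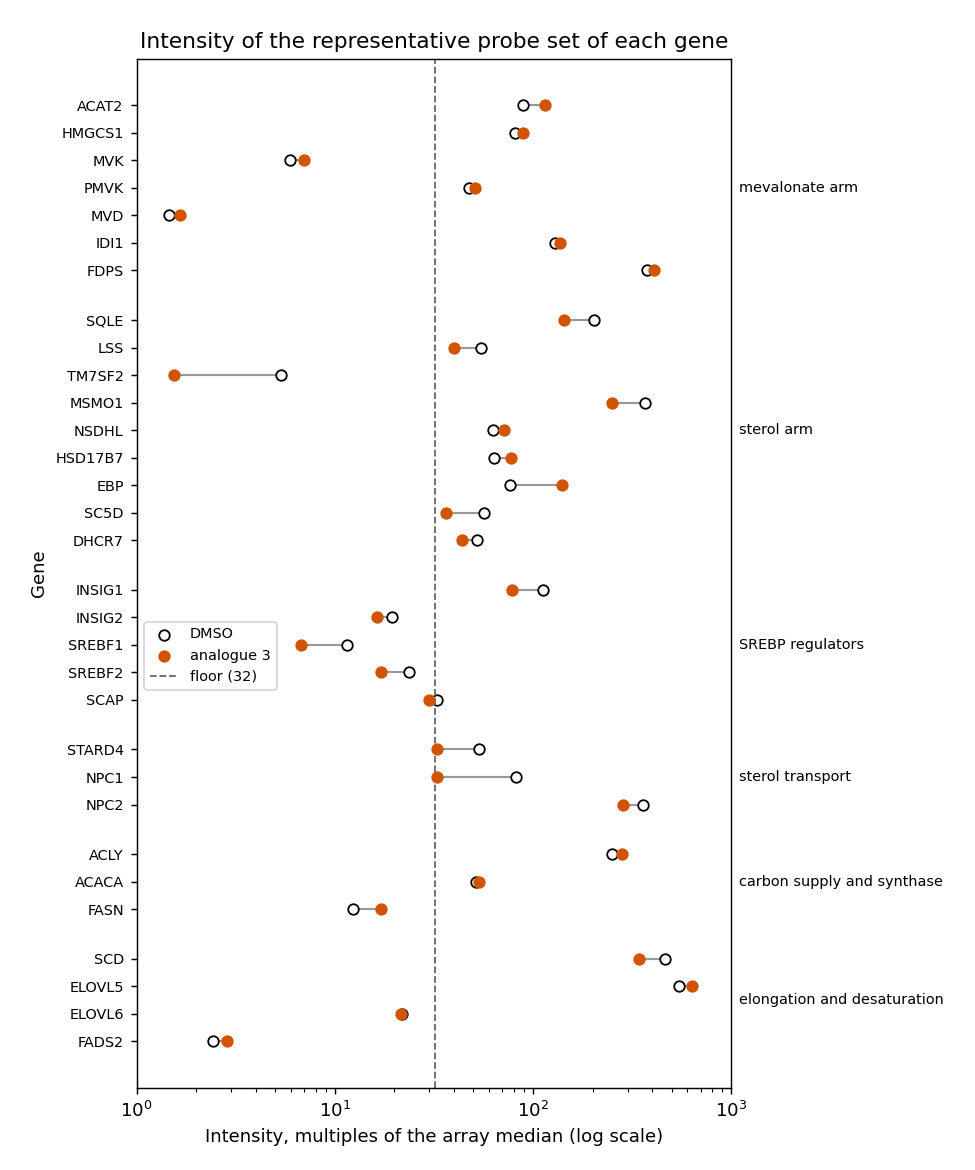
Intensity of the representative probe set of each of the 31 genes on a log scale, in multiples of the array median, with DMSO as open and analogue 3 as filled circles, 1 array each; the dashed line is the floor of 32. Mevalonate genes have filled circles to the right of or over the open ones, and all 8 genes of sterol regulation and transport have them to the left, with the widest measured gap in NPC1 (32.7 against 81.9). Levels of different genes are not comparable, since each probe set binds with its own strength.

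Differences at least 1.5-fold were seen in 4 measured members. EBP, a sterol isomerase gene, was at 139.8 with analogue 3 and 76.7 with DMSO, or 1.82-fold higher, where 9.45% of measured genes were at least 1.5-fold higher. NPC1, STARD4 and SC5D were at least 1.5-fold lower, as were 9.13% of measured genes. STARD4, which carries cholesterol between membranes, was at 32.8 against 53.5 (1.63-fold lower), and SC5D, a sterol desaturase gene, at 36.5 against 56.5 (1.55-fold lower). Their promoters are shown for the higher gene EBP and for the lower genes STARD4 and NPC1, because these 3 had the largest differences among the measured members. Each window runs from 250 bases before to 50 bases after the RefSeq gene start on GRCh38.p14, at chrX:48521558-48521857 (plus strand) for EBP, chr5:111512486-111512785 (minus strand) for STARD4 and chr18:23586457-23586756 (minus strand) for NPC1. Capitals mark CCAAT or its reverse complement, the core of the site of NF-Y, a factor that acts with SREBPs at many sterol genes.
EBP: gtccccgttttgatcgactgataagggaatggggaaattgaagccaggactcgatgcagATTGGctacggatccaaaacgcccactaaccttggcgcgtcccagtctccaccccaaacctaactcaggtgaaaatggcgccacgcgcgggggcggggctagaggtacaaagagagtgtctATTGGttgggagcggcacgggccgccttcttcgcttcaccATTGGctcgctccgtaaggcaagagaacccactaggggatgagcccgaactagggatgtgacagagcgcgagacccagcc
STARD4: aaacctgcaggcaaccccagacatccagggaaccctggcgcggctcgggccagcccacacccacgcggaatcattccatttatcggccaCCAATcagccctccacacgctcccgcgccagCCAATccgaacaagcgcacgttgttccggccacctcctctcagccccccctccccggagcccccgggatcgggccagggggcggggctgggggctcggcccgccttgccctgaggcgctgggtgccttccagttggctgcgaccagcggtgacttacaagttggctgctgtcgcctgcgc
NPC1: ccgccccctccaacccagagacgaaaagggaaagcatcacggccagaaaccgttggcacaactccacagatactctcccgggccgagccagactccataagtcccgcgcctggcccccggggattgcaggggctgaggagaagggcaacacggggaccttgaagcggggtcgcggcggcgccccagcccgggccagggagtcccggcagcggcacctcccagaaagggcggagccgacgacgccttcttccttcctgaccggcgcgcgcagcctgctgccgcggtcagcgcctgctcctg
The EBP window held 3 CCAAT boxes, the STARD4 window 2 and the NPC1 window 0, so the higher gene and 1 of the lower genes both carried the motif. Of the 34 listed genes, 30 had a window in the RefSeq table, and ACAT2, FASN, FDFT1 and SQLE did not match. CCAAT on either strand was found in 19 of the 30 windows (63.3%) and in 34.6% of all 35116 windows of the same length, and the E-box CACGTG in 5 (16.7%) and in 7.26%. GGGCGG on either strand, the GC box, stood in 27 of the 30 windows (90.0%) and in 45.0% of all. The 35116 windows were not limited to measured genes or by type of gene. These shares therefore do not set sterol genes apart from other expressed genes. The sterol regulatory element, searched as TCACNCCAC on both strands, was found in 1 of the 30 windows and in 1.13% of all. That window belonged to SREBF2, the gene of an SREBP itself, and is shown in part, a choice made after the matches were seen, with the element in capitals and 20 bases on each side (chr22:41832952-41833000, plus strand).
SREBF2: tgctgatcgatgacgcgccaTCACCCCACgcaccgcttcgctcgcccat
The first letter of the element lies 133 bases before the gene start. A match of letters in a window of 300 bases is a description and does not show binding. Only this pattern of the element was searched, so a window without a match may hold another form of it.

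Genes of the mevalonate arm, which makes isoprenoid units, differed little. ACAT2, the cytosolic thiolase that joins the first acetyl groups, was at 115.4 with analogue 3 and 88.7 with DMSO, a log2 difference of 0.38. It was the only one of the 5 measured genes of this arm whose difference was larger than 2 probe-set SDs over all genes, or 0.35, and it lay within 2 SDs over the members, or 0.43. HMGCS1, which makes hydroxymethylglutaryl-CoA, was at 89.3 against 81.1 (log2 difference 0.14). In the other probe set of HMGCS1 the values were 4.24 against 7.03, low on both arrays and in the opposite direction. PMVK, the phosphomevalonate kinase, was at 51.0 against 47.7 (0.10). IDI1, the isomerase of the isoprenoid units, was at 137.4 against 129.8 (0.08), and its next probe set at 112.3 against 100.8 (0.16). Its remaining probe sets lay between 6.47 and 10.1 on both arrays and were lower with analogue 3. FDPS, which makes farnesyl diphosphate, was at 409.5 against 375.2 (0.13). The kinase gene MVK and the decarboxylase gene MVD were under the floor, at 7.01 against 5.98 and at 1.67 against 1.46. All 5 measured genes thus lay above 0, with a median log2 difference of 0.13, where 48.4% of all measured genes lay above 0, but 4 of them by less than the limit of 0.35.

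In the arm from squalene to cholesterol the genes went both ways. Of 8 measured genes 5 lay below 0, where 51.5% of all measured genes did, and 3 lay above. The median of the 8 log2 differences was -0.35. SQLE, LSS, MSMO1 and SC5D were lower beyond the limit of 0.35, as were 20.4% of all measured genes, while DHCR7 lay within it. EBP was higher beyond the same limit, as were 19.3% of all measured genes. SQLE, the squalene epoxidase gene and a control point of the pathway, was at 143.6 with analogue 3 and 202.4 with DMSO, or 1.41-fold lower. Its other probe sets ran the same way, at 48.5 against 62.2, 10.5 against 15.1 and 2.96 against 4.27. All 4 probe sets of SQLE therefore gave log2 differences between -0.36 and -0.53. LSS, which closes the ring to lanosterol, was at 40.0 against 54.4 (1.36-fold lower). Its other probe sets were also lower but far under the floor, at 2.569 against 3.275 and 0.907 against 1.092. MSMO1, an oxidase that removes methyl groups from the sterol ring, was at 251.5 against 367.3 (1.46-fold lower) in its only probe set.

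Genes of the next steps lay on the other side of 0. NSDHL, the dehydrogenase that follows MSMO1, was at 71.6 against 62.8 (log2 difference 0.19), and its second probe set at 49.2 against 43.6 (0.18). HSD17B7, the reductase of the same demethylation, was at 77.7 against 63.6 (0.29), in an x_at probe set, a type that can bind transcripts of related sequence. EBP, described above, was at 118.1 against 66.4 in its second probe set, a log2 difference of 0.83 against 0.87 in the first. Of these 3, EBP differed by more than 2 probe-set SDs. The last enzymes were lower again. SC5D had a log2 difference of -0.63. It rests on 1 probe set, near the floor with analogue 3 at 36.5, since its other probe set was at 0.224 against 0.231. DHCR7, which reduces the final double bond, was at 43.9 against 52.1 (-0.25) and in its dimmer probe set at 12.0 against 16.4 (-0.45). TM7SF2, a sterol reductase gene, lay at 1.55 with analogue 3 and 5.34 with DMSO, far under the floor on both arrays. With no floor it joined NPC1 as the second member past 2-fold, 2 of 31, where 3.66% of all genes were 2-fold lower. With a floor of 2 the same count was 2 of 30, where 5.25% were. Together, the 13 measured enzymes of both arms had a median log2 difference of 0.10, with 2 higher (ACAT2 and EBP) and 4 lower (SQLE, LSS, MSMO1 and SC5D) beyond 2 probe-set SDs over all genes. With the limit of 0.43 from the members, the same 4 were lower and 1, EBP, was higher. Over all measured genes, 19.3% were higher and 20.4% were lower beyond the limit of 0.35.

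**Figure D2:**
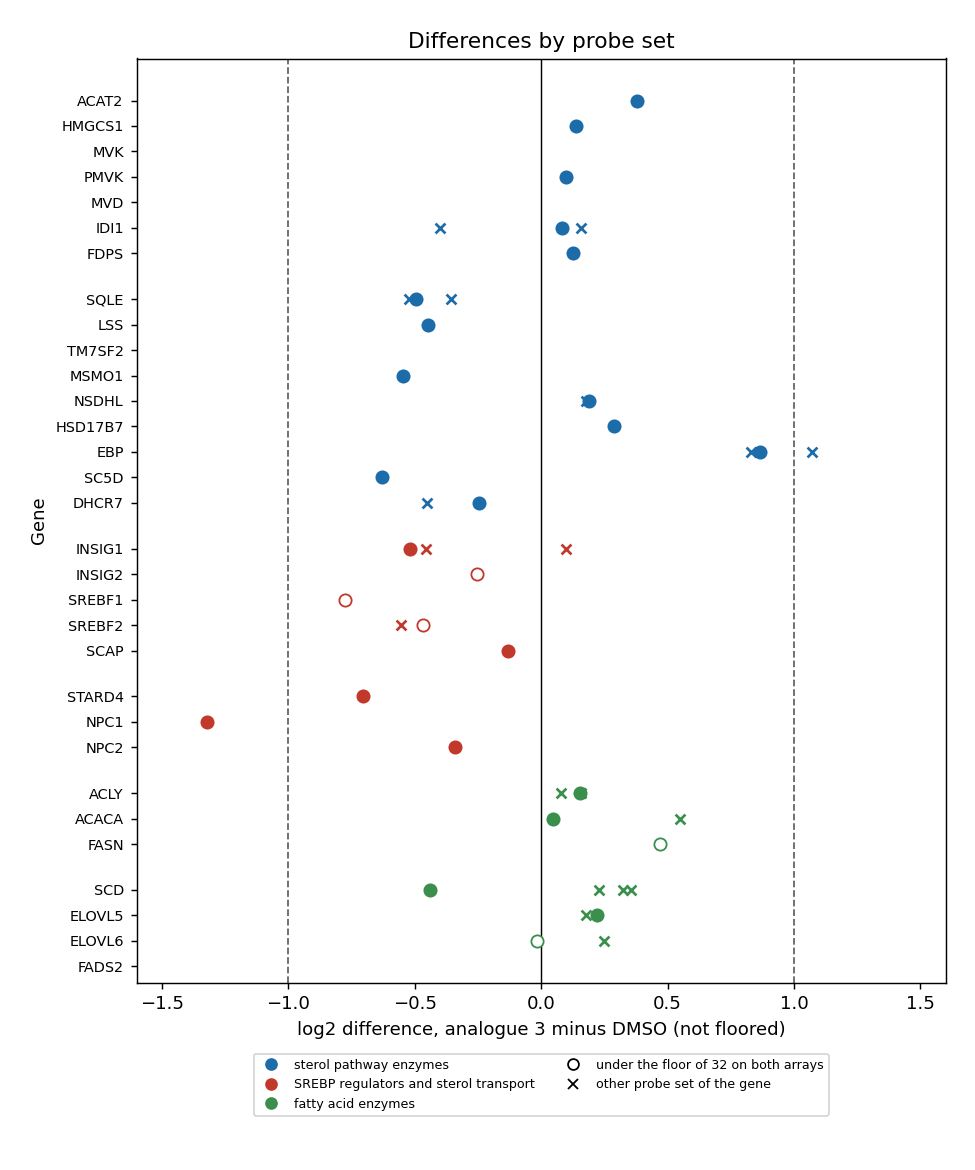
Log2 differences, analogue 3 minus DMSO, without the floor, for every member probe set that reached 8 on at least 1 array; circles are the representative probe sets (open where under 32 on both arrays), crosses the other probe sets, and dashed lines mark 2-fold. SQLE and EBP agree across their probe sets, while SCD has its representative at -0.44 and its 3 other probe sets above 0; MVK, MVD, TM7SF2 and FADS2 have no probe set that reached 8.

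Genes that control SREBP processing were lower or level. INSIG1, which holds SCAP in the endoplasmic reticulum and is itself an SREBP target, was at 78.0 with analogue 3 and 111.8 with DMSO, or 1.43-fold lower. Its second probe set was at 23.8 against 32.6 (log2 difference -0.46), but the third was at 13.0 against 12.1 (0.10). The median of the 3 probe sets reached 32 only with DMSO, and the floored difference was then -0.03. INSIG2, a relative of INSIG1 that also binds SCAP, was under the floor at 16.3 against 19.4. SCAP was at 29.9 against 32.7, a difference of -0.13 that the floor bounds at -0.03. The SREBP genes were under the floor on both arrays. SREBF2, whose product mainly drives cholesterol genes, was at 17.1 against 23.7 (-0.47 without the floor), and in its other probe sets at 7.09 against 10.4 and 7.11 against 7.09. SREBF1, whose main liver form drives fatty acid genes, was at 6.73 against 11.5 (-0.77 without the floor). Its other probe set was level, at 1.93 against 1.96.

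The 3 genes of sterol transport were all lower with analogue 3. For NPC1 the log2 difference was -1.32, and 1.19% of measured genes had a lower one. Its 3 other probe sets were at or near background, between 0.40 and 1.13 on both arrays, so NPC1 rests on 1 probe set, and its value with analogue 3 lies just above the floor. NPC2, the soluble partner that passes cholesterol to NPC1 in the lysosome, was at 284.1 against 360.2, or 1.27-fold lower, in its only probe set. The log2 difference of NPC2, -0.34, lay just within 2 probe-set SDs. STARD4 had a log2 difference of -0.71, also in its only probe set, and its value with analogue 3, 32.8, lies just above the floor. The 5 measured genes of sterol regulation and transport were all below 0, as were 51.5% of all measured genes, with a median log2 difference of -0.52. INSIG1, NPC1 and STARD4 lay beyond 2 probe-set SDs, where 20.4% of all measured genes were lower by as much. SCAP and NPC2 lay within that limit. With a floor of 8, all 8 genes of this group were measured and all 8 lay below 0, with a median of -0.49. Over all 8523 genes measured with that floor, 4730 lay below 0 and the median was -0.05.

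Of the measured fatty acid genes, 3 of 4 were level or slightly higher with analogue 3. ACLY, which supplies cytosolic acetyl-CoA from citrate, was at 280.1 with analogue 3 and 251.6 with DMSO (log2 difference 0.15), and its other probe sets at 65.4 against 58.6 and 42.1 against 39.9. ACACA, the carboxylase that makes malonyl-CoA, was at 53.2 against 51.5 (0.05). Neither differed beyond 2 probe-set SDs in these probe sets, but the dimmer probe set of ACACA, under the floor, was at 18.0 against 12.3 (0.55). FASN, the fatty acid synthase gene, was under the floor, at 17.2 against 12.4 (0.47 without the floor). ELOVL5, an elongase of polyunsaturated chains, was at 635.1 against 544.6 (0.22), and ELOVL6, an elongase of saturated and monounsaturated chains, was at 21.6 against 21.9, under the floor, and in its next probe set at 11.0 against 9.26 (0.25). FADS2, a desaturase of polyunsaturated chains, was at 2.85 against 2.43.

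SCD, the desaturase that makes monounsaturated fatty acids, gave different directions by probe set. The representative probe set was at 341.4 with analogue 3 and 462.8 with DMSO, or 1.36-fold lower. The next was at 81.8 against 65.3, or 1.25-fold higher, and the others were at 16.1 against 13.7 and 12.5 against 9.73, also higher. With the median of its 4 probe sets the log2 difference of SCD was 0.18 in place of -0.44, so these arrays give no single direction for the gene. The 4 measured fatty acid genes had a median log2 difference of 0.10, with 3 above 0, where 48.4% of all measured genes lay. Over the members, 12 had a second probe set that reached 8 on at least 1 array, and in 8 of these genes every such probe set had the sign of the representative one.

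**Figure D3:**
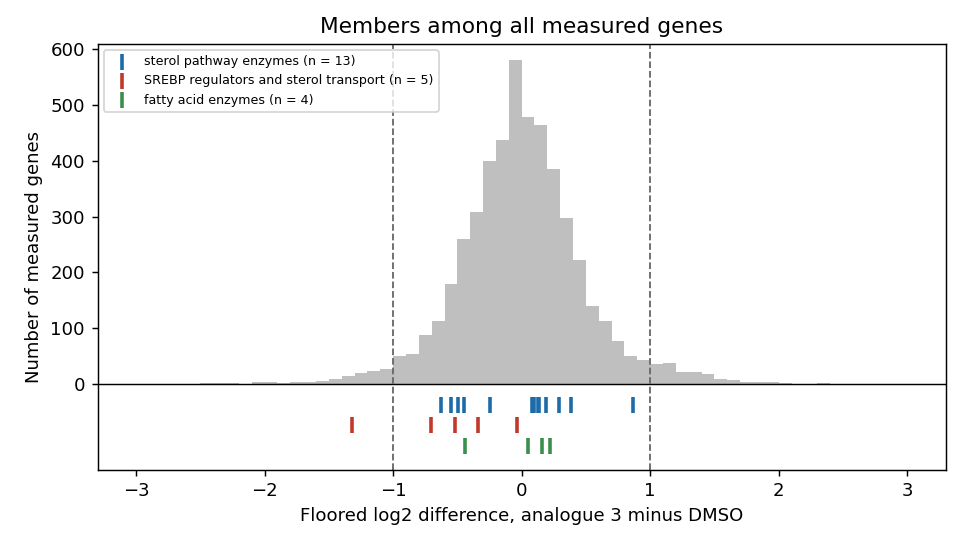
Number of measured genes (5050) by floored log2 difference, analogue 3 minus DMSO, in bins of 0.1, with a tick below the axis for each of the 22 measured members, and dashed lines at 2-fold. NPC1 at -1.32 is the only tick past the dashed lines; the other ticks lie between -0.71 and 0.87, and the ticks of sterol regulation and transport all lie left of 0.

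Other genes of the same biology were taken as 3 lists, and none of the genes that reached the floor of 32 was 2-fold different after flooring. With a floor of 8, VLDLR, a lipoprotein receptor gene, at 8.46 against 17.1, the elongase gene ELOVL7, at 13.4 against 29.4, and FADS3, at 19.0 against 39.8, were at least 2-fold lower. At that floor 1 of 27 members, NPC1, and 3.92% of all genes were 2-fold lower. With no floor ABCG1 was also past 2-fold, at 0.77 against 8.62 (11.2-fold lower), where 3.66% of all genes were 2-fold lower. ELOVL3, at 1.15 against 0.35, was then past 2-fold in the other direction. Both genes lay far under 32 on both arrays. Of 9 measured genes of sterol synthesis and SREBP processing outside the members, 6 lay above 0, with a median log2 difference of 0.10. Over all measured genes 48.4% lay above 0. Those with the highest signal were CYB5R3, a reductase that passes electrons to cytochrome b5, at 290.7 against 270.5, and the mitochondrial thiolase gene ACAT1, at 270.6 against 258.7. TMEM97, an SREBP target whose product binds sterols and is related to EBP, was picked once its values were known, at 181.0 with analogue 3 and 97.4 with DMSO, or 1.86-fold higher. In the same list CYB5B, at 125.2 against 76.2, and LBR, at 112.0 against 72.5, were also at least 1.5-fold higher. GGPS1, at 28.7 against 48.15, was at least 1.5-fold lower after flooring. Over all measured genes 9.45% were at least 1.5-fold higher and 9.13% lower. Of 11 genes found for sterol uptake, export and storage, 4 were measured and lay below 0, with a median of -0.56, where 51.5% of all measured genes lay below 0. With a floor of 8, 8 of 9 lay below 0 and SCARB1 above, with a median of -0.37. In that list the cholesterol exporter gene ABCA1 was at 120.5 against 227.6 (1.89-fold lower) and LIPA, the lysosomal lipase that frees cholesterol from its esters, at 89.3 against 110.6 (1.24-fold lower). SOAT1, which esterifies cholesterol for storage, was at 45.9 against 70.7, and was likewise picked once its values were known. Of the 9 measured genes of fatty acid and lipid synthesis 5 lay above 0, where 48.4% of all measured genes did, with a median of 0.02. FABP5, a fatty acid-binding protein gene, was at 963.5 against 645.1, and HSD17B12, a reductase of fatty acid elongation, at 290.7 against 338.3.

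**Figure D4:**
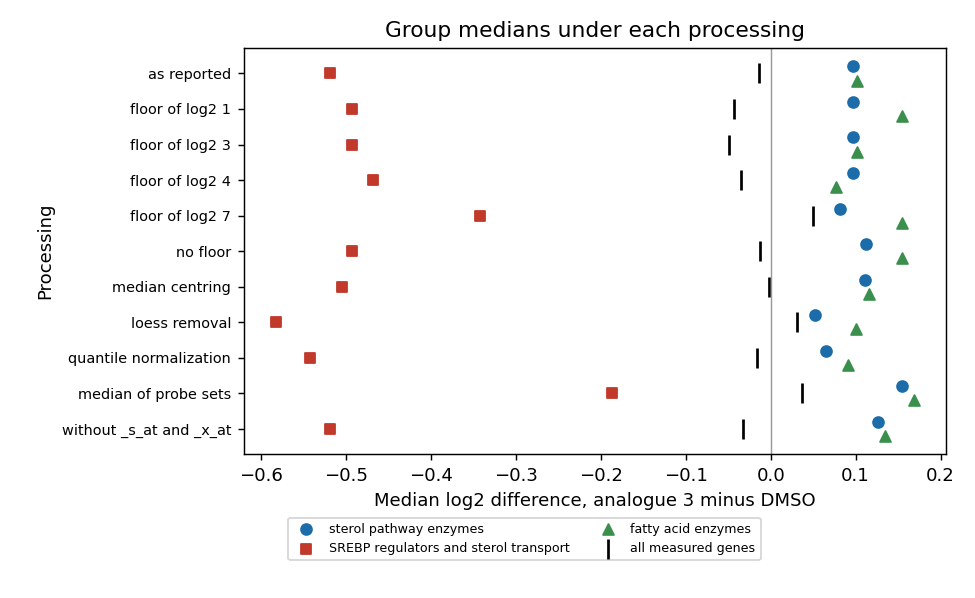
Median log2 difference, analogue 3 minus DMSO, of each member group as reported and under the 10 alternative ways of processing, with a bar for all measured genes. The median of sterol regulation and transport stays below 0 throughout, from -0.58 to -0.19, and those of the sterol enzymes (0.05 to 0.15) and fatty acid enzymes (0.08 to 0.17) stay above 0.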

How the data were processed

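Biotin-labelled RNA of each culture was hybridised to an Affymetrix human genome U133 Plus 2.0 array, per the labels' protocols. The authors deposited 1 linear intensity per probe set and array, for 54675 probe sets. The submitters' processing notes name GCRMA; its version is not given in the sources used here. Each intensity column has a median of 1, from which a scaling to the array median was inferred. Of the probe sets, 41097 had exactly 1 symbol in GEO's platform annotation, 1801 had several, and 11777 stay unnamed. All 31 member symbols were current in RefSeq.

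Log2 values were floored at log2 5 (an intensity of 32), which 13.1% of probe sets reached with analogue 3 and 13.4% with DMSO. The probe-set SD came from differences between the 2 brightest probe sets of a gene that reached the floor on each array, divided by the square root of 2. It leaves out the error between cultures, RNA extracts and hybridisations, for which 1 array a group gives no estimate. All members are accounted for, and of the other lists the 2 brightest measured genes and any past 2-fold were to be named. Members, lists and rules were chosen with earlier results of these data known. Alternatives were floors of log2 1, 3, 4 and 7 or none, median centring, loess removal (span 0.3), quantile normalization, the median over probe sets, omission of _s_at and _x_at probe sets, and thresholds of 1.5-fold and 3-fold. The procedure was tested on simulated data whose only noise was the probe-set SD, so the error between cultures was left out of that test. Python 3.11.15, pandas 2.3.3 and statsmodels 0.14.6 were used.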

Additional observations from a re-analysis of the deposited data

How the results depend on the processing

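The count of 1 member at least 2-fold lower became 2 with a floor of log2 1 and with no floor, where TM7SF2 joined NPC1, and 3 at a 1.5-fold threshold. It became 0 with a floor of log2 7, with the median over probe sets and at a 3-fold threshold. With the median of probe sets NPC1 itself fell under the floor. The count of 0 members higher became 1 (EBP) at the 1.5-fold threshold. The median log2 difference of the sterol regulation and transport genes moved from -0.52 to -0.34 with a floor of log2 7, where it rests on 1 gene, and to -0.19 with the median of probe sets, over 4 genes. The median over all measured members moved to -0.19 without the _s_at and _x_at probe sets, over 14 genes. A value was taken as moved where it shifted by the probe-set SD or more. Of 188 single-gene values under the alternatives 185 moved by less than that. The 3 others were EBP with a floor of log2 7 (0.13), INSIG1 (-0.03) and SCD (0.18) with the median of probe sets. Only for SCD did the sign turn. Lower floors and no floor could not move a gene that reached the reported floor on both arrays, as 21 of 22 measured members did. Those values therefore do not show how stable the differences are. Genes that fell out under an alternative gave no value. With the median of probe sets 12 members stayed measured, and SQLE, LSS and EBP were among those lost.

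With 1 array per group no result can be checked against replicate spread, and no paired analysis was possible because each group has 1 sample. Members under the floor, among them both SREBP genes, have values but no bounded fold. The cause of each shift was not tested beyond the number of genes measured.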
